A study of Mus musculus with 8 samples.

Results

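The RNA polymerases, the Mediator complex and the general transcription factors were followed in spermatids of Carm1 conditional knockout and wild-type mice. Members were all genes of the table whose symbol starts with Polr, Gtf2 or Gtf3, or with Med or Taf directly followed by a digit, leaving out Med12, Taf7l and Gtf2a1l, which gave 103 of 16349 genes. They comprise 29 polymerase subunits and associated proteins, 29 Mediator subunits and 27 general factors of RNA polymerase II, of which 15 are TAFs of TFIID. The rest are 7 genes of TFIIIA and TFIIIC, 4 TAFs of the RNA polymerase I factor SL1, 3 genes of the TFII-I family, 2 TAF-like subunits of SAGA, the RNA-binding protein gene Taf15, and Med9os, an antisense RNA gene that the symbol rule also takes in.

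Cells carry separate nuclear polymerases for ribosomal RNA, for mRNA and for tRNA and other small RNAs, and a further single-subunit polymerase, encoded by Polrmt, transcribes the mitochondrial genome. RNA polymerase II is placed on promoters by the general factors: TFIID binds the promoter, TFIIA and TFIIB stabilise it, TFIIF escorts the polymerase, and TFIIE and TFIIH open the DNA. Mediator, built of head, middle, tail and kinase modules, passes signals from activators to the polymerase. Round spermatids transcribe a large haploid programme, driven in part by the activator CREM, whereas in elongating spermatids the chromatin is compacted and transcription ceases. Male germ cells are known for using paralogs of these factors, such as Taf4b and Taf7l in TFIID.

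The groups were elongating spermatids labelled conditional knockout (cKO), elongating WT spermatids, round spermatids labelled cKO and round WT spermatids, with 2 libraries each. All were from testes of C57BL/6 mice with no treatment, each sample was purified from 8 testes by elutriation, and the Cre driver of the conditional allele and the age are not given in the labels. CARM1 is an arginine methyltransferase and transcriptional coactivator. Whether replicate libraries derive from different animals is not stated, so the p-values cover no more than the scatter among the libraries at hand, possibly technical. Values are normalised read counts, that is, whole reads scaled by the authors with 1 size factor a library, and differences were tested with limma on log2(value + 1) over 15685 genes with Benjamini-Hochberg adjustment. A gene was called, and is said to have risen or fallen, at an adjusted p under 0.05, and every adjusted p given here comes from limma over all genes tested.

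Carm1 itself measured 8157 and 7993 in KO-labelled and 4308 and 4534 in WT elongating libraries (log2 fold change 0.87, SE 0.05, limma adjusted p = 2.7e-09). In round spermatids it measured 1174 and 1343 in KO-labelled and 1649 and 1686 in WT libraries (log2 fold change -0.41, SE 0.05, limma adjusted p = 3.8e-05). The rise at the elongating stage goes against the label, and the modest fall at the round stage leaves most of the signal, so the term KO-labelled is used for these libraries and each direction below is between libraries by their labels.

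Libraries held 17190962 to 23526694 reads. The members took 0.119% of reads in each KO-labelled elongating library, 0.151% and 0.152% in WT elongating libraries, 0.565% and 0.577% in KO-labelled round libraries, and 0.570% and 0.562% in WT round libraries. The median member had 73 and 63 reads in KO-labelled and 109 and 108 reads in WT elongating libraries, and 390 and 439 reads in KO-labelled and 424 and 420 reads in WT round libraries. The elongating libraries therefore give the least precise values. The top 50 genes by abundance held 34.9% and 34.8% of the reads in KO-labelled and 31.9% and 31.9% in WT elongating libraries, against 10.1% to 10.3% in round libraries. The scalings give different answers at the elongating stage: the median KO-labelled over WT change of all genes tested was -0.61 by total reads, -0.56 with library sizes that leave out these 50 genes and -0.07 with the size factors of the authors. The source of the gap was not tested, and values by total reads are given beside those of the size factors below. The 10 elongating-spermatid markers took 14.9% and 14.8% of reads in KO-labelled and 12.9% and 12.9% in WT elongating libraries, against 2.09% to 2.19% in round libraries. The 8 round-spermatid markers took 0.162% and 0.162% in KO-labelled and 0.190% and 0.191% in WT elongating libraries. In round libraries they took 0.211% to 0.214%. Genes of that list went both ways between the elongating groups. Spaca1 measured 273 and 271 in KO-labelled and 737 and 727 in WT elongating libraries. Tssk2 measured 54800 and 53115 in KO-labelled and 40302 and 41238 in WT elongating libraries, and 5353 to 5734 in round libraries. The 9 spermatocyte markers took 0.0040% and 0.0042% in KO-labelled and 0.0081% and 0.0085% in WT elongating libraries. In round libraries they took 0.0646% and 0.0639% in KO-labelled and 0.0750% and 0.0766% in WT. Sertoli-cell markers, 10 of 11 of which are in the table, took 0.0110% and 0.0115% in KO-labelled and 0.0231% and 0.0231% in WT elongating libraries, and in round libraries 0.0018% to 0.0030%. The 9 macrophage markers took 0.0043% and 0.0045% in KO-labelled and 0.0153% and 0.0151% in WT elongating libraries, and 0.0011% to 0.0016% in round libraries. The 8 spermatogonial markers took 0.0017% and 0.0017% in KO-labelled and 0.0033% and 0.0032% in WT elongating libraries. The 9 peritubular and vascular markers went the other way as a sum, with 0.0085% and 0.0085% in KO-labelled and 0.0070% and 0.0068% in WT elongating libraries, and genes of that list went both ways. Leydig markers, 3 of 6 of which are in the table, took 0.00026% and 0.00023% in KO-labelled and 0.00025% and 0.00017% in WT elongating libraries. None of these markers was at 0 in an elongating library, and Fshr, a Sertoli marker, was at 0 in both KO-labelled round libraries. The part of these other cells in the results below was not tested. In such bulk samples, fewer cells of a type and less RNA per cell cannot be told apart.

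Promoter windows are shown because CREM binds the cAMP response element, whose full form is TGACGTCA, and because the title of the study names a CREM pathway. In RefSeq (GRCm38.p6), 89 of the 103 members had at least 1 window of 250 bases before a transcription start, 105 windows in all. The full element, which is its own reverse complement, was found in 4 of these windows, or 3.81%, against 1.55% of all 32851 windows of the same length. The shorter site TGACG, searched on both strands and also contained in the full element, was found in 35 windows, or 33.3%, against 17.8% of all windows. A match describes these letters only, and no binding was measured. The 4 windows with the full element belong to Gtf2f1 (chr17:57011289-57011538, minus strand), Gtf3c1 (chr7:125707689-125707938, minus strand), Med21 (chr6:146642329-146642578, plus strand) and Taf11 (chr17:27907745-27907994, minus strand). They are printed 5′ to 3′ along the gene, up to the base before the start, with the element in capitals:
Gtf2f1: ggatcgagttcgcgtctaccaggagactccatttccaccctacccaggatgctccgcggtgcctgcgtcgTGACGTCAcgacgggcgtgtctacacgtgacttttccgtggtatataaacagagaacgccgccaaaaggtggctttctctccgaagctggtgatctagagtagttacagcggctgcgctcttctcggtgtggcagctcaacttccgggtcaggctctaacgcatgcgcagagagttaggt
Gtf3c1: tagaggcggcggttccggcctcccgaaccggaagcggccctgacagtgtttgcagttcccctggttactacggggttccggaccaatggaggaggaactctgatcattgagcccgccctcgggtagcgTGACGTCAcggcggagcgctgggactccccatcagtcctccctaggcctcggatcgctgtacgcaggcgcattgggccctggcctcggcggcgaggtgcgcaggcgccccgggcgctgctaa
Med21: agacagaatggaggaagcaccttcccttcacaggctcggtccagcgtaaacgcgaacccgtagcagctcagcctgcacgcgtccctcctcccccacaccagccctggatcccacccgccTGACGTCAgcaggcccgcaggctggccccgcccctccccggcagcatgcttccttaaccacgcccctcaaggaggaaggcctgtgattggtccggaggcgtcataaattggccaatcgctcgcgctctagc
Taf11: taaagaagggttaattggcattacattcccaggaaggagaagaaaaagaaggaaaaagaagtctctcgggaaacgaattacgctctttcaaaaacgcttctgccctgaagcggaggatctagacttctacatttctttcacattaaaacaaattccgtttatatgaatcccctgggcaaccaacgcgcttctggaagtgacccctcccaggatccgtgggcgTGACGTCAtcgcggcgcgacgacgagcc
The first base of the element lay 180 bases before the start in Gtf2f1, 122 in Gtf3c1, 131 in Med21 and 28 in Taf11. The printed window of Taf11 lies within the annotated gene. A second window of Taf11 (chr17:27909243-27909492) holds the shorter site but not the full element. The window of Med9 (chr11:59947964-59948213, plus strand) is added because Med9 and Med9os lie head to head there, have no common exon and both rose in both knockout comparisons. It holds the shorter site, in capitals and on either strand, but not the full element:
Med9: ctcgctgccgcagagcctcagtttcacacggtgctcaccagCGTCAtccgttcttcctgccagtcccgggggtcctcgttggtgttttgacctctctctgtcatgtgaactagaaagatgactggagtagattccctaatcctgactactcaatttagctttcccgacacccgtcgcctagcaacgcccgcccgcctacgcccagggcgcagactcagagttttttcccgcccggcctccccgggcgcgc

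Levels per kilobase of exon differed widely within the set. In round WT libraries they ran from 2.80 for Med18 to 3494 for Taf9, with a median of 68.2 normalised reads per kb. In elongating spermatids the median was 32.3 per kb in KO-labelled and 47.9 per kb in WT libraries. Taf9, a histone-fold TAF of TFIID and SAGA, shares 73.8% of its exon bases on the same strand with Ak6, an adenylate kinase gene, so its reads cannot be assigned to either with certainty. Within RNA polymerase II in round WT libraries, the catalytic subunit gene Polr2a stood at 489 per kb and Polr2i at 396 per kb, while the shared subunit gene Polr2h stood at 16.6 per kb. Med18, a head subunit, was the only member below the minimum for testing, with 0.00 and 1.89 in KO-labelled elongating, 9.02 and 5.77 in WT elongating, 5.72 and 5.63 in KO-labelled round and 6.36 and 4.84 in WT round libraries. Of the members, 11 share over 10% of their exon bases with another gene, among them Gtf3a with Mtif3, Taf10 with Ilk and Taf6 with Ap4m1, and since the library kit does not mark strand their values are uncertain to that extent.

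The comparison of elongating with round spermatids asks how the machinery changed over the stage at which transcription ceases. Most members were lower in elongating spermatids. In KO-labelled cells 68 of 102 tested members fell and 16 rose, against 41.8% of all genes tested that fell and 42.6% that rose. In WT cells 71 fell and 15 rose, against 40.2% of all genes that fell and 41.7% that rose. The median member changed by -1.10 in KO-labelled and -0.81 in WT cells on the log2 scale, while the median of all genes tested was 0.01 in each. The same 64 members fell and the same 14 rose in both genotypes, and the share of all genes called alike in both was not counted.

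**Figure D1:**
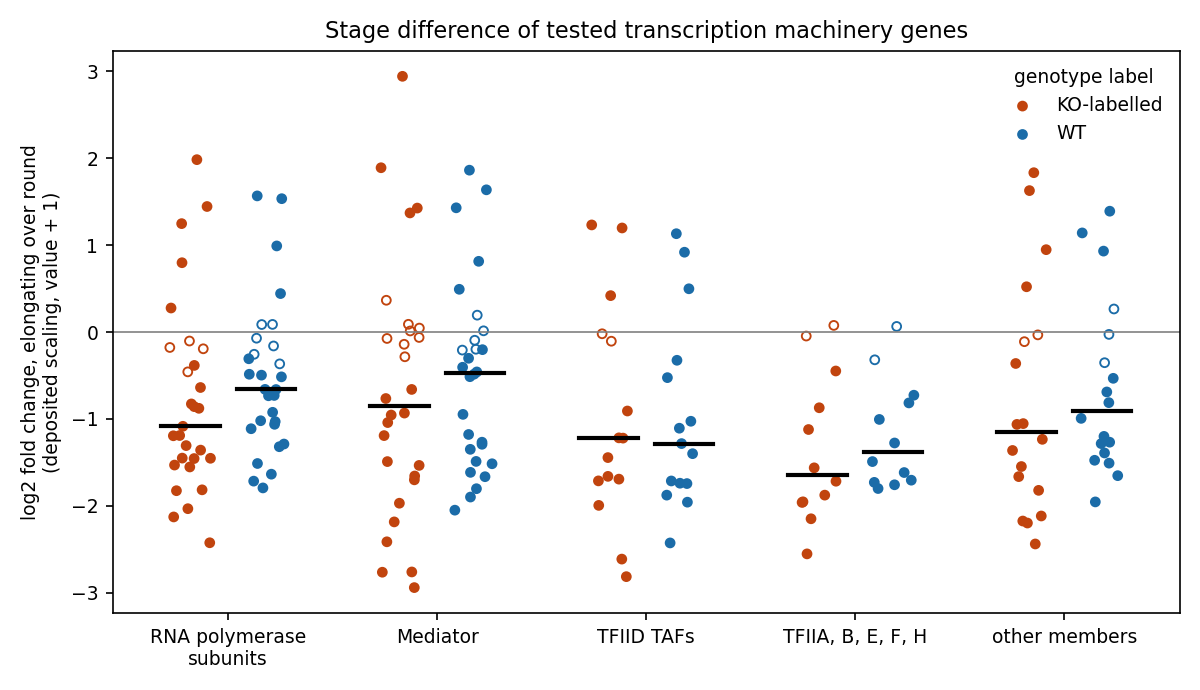
Log2 change of each tested member, elongating minus round, by role, with KO-labelled cells left of WT cells; filled points were called at an adjusted p under 0.05, open points were not, and bars mark the medians. Most points lie below 0 in every large role, and Med13l is the highest in both genotypes, at 2.94 in KO-labelled and 1.86 in WT cells.

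Of the 27 general factors of RNA polymerase II, 20 fell and 3 rose in KO-labelled cells, with a median of -1.44, and 22 fell and 3 rose in WT cells, with a median of -1.28. These counts are by the size factors. Shares of all genes tested were 41.8% that fell and 42.6% that rose in KO-labelled cells, and 40.2% and 41.7% in WT cells. Taf5, a WD-repeat scaffold subunit of TFIID, measured 42.5 and 44.7 in elongating and 245 and 233 in round WT libraries (log2 fold change -2.43, SE 0.14, limma adjusted p = 2.3e-10). Taf12, a histone-fold TAF, measured 98.9 and 75.4 in elongating and 603 and 625 in round KO-labelled libraries (log2 fold change -2.81, SE 0.11, limma adjusted p = 2.1e-12). Both genes were far below their round level in every elongating library. Gtf2a2, the small subunit of TFIIA, measured 167 and 143 in elongating and 964 and 863 in round KO-labelled libraries (log2 fold change -2.55, SE 0.10, limma adjusted p = 1.6e-12), and Gtf2b, the single subunit of TFIIB, measured 206 and 234 in elongating and 729.8 and 759.6 in round WT libraries (log2 fold change -1.76, SE 0.10, limma adjusted p = 4.2e-10). Gtf2f1, the large subunit of TFIIF, stood apart, with 4359.8 and 4356 in elongating and 4111 and 4228 in round WT libraries and a change that was not called (95% interval -0.04 to 0.17, here and below not adjusted over genes). Its partner Gtf2f2 fell in both genotypes (-0.87 in KO-labelled and -1.01 in WT cells).

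Of the 29 polymerase genes, 20 fell and 5 rose in KO-labelled cells, and 19 fell and 4 rose in WT cells, by the size factors. Shares of all genes tested were 41.8% that fell and 42.6% that rose in KO-labelled cells, and 40.2% and 41.7% in WT cells. Polr2a (chromosome 11, 69733997 to 69758637, GRCm38, GENCODE annotation) encodes the catalytic subunit with the C-terminal repeat domain, and it measured 1004 and 1102 in elongating and 3499.7 and 3417 in round WT libraries (log2 fold change -1.72, SE 0.05, limma adjusted p = 1.7e-13). It measured 760.2 and 833 in elongating and 3225 and 3296 in round KO-labelled libraries (log2 fold change -2.03, SE 0.05, limma adjusted p = 1.5e-14). The 4 libraries of each stage did not overlap. All 3 members that encode subunits particular to RNA polymerase I fell in both genotypes, including the largest, Polr1a (-1.19 in KO-labelled and -1.06 in WT cells). Other subunits of that polymerase have symbols outside the rule. Polr2k, a small zinc-ribbon subunit shared by the nuclear polymerases, measured 25.2 and 18.9 in elongating and 143 and 103 in round KO-labelled libraries (log2 fold change -2.42, SE 0.27, limma adjusted p = 6e-07). A named pseudogene of Polr2k exists, so some of its reads may be shared.

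By the size factors, the 14 members that rose in both genotypes included Polr2m, the polymerase subunits Polr2l, Polr3b and Polr3g, Mediator subunits, TAFs and Gtf3a. Polr2m encodes GDOWN1, which binds RNA polymerase II and limits initiation, and it measured 607 and 614 in elongating and 225 and 196 in round WT libraries (log2 fold change 1.53, SE 0.09, limma adjusted p = 2.8e-10). Polr3g, an alternative subunit of RNA polymerase III, measured 108 and 131 in elongating and 37.5 and 41.8 in round WT libraries (log2 fold change 1.57, SE 0.19, limma adjusted p = 1.7e-06). These genes were higher in every elongating than in every round library of either genotype. Med13l, which can take the place of Med13 in linking the kinase module to Mediator, measured 2781 and 3054 in elongating and 371 and 385 in round KO-labelled libraries (log2 fold change 2.94, SE 0.06, limma adjusted p = 2.6e-16) and in WT cells its log2 fold change was 1.86, a difference between genotypes that was itself called (limma adjusted p = 8.7e-08). Med25, an activator-binding tail subunit, measured 4173 and 4368 in elongating and 1419 and 1329 in round WT libraries (log2 fold change 1.64, SE 0.05, limma adjusted p = 9.4e-14), and Med14, the backbone that joins the modules, 398 and 441 in elongating and 235 and 241 in round WT libraries (log2 fold change 0.81, SE 0.08, limma adjusted p = 1.1e-07). The TAFs Taf10, Taf6 and Taf11 and both SAGA genes, Taf5l and Taf6l, also rose in both genotypes. Gtf3a, encoding TFIIIA for the small ribosomal RNA gene, rose by a log2 fold change of 1.83 in KO-labelled and 1.39 in WT cells, with 59.1% of its exon bases shared with Mtif3.

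By total reads each fall was still called and most of the rises were not. On that scale 98 members fell and 1 rose in KO-labelled cells, and 96 fell and 2 rose in WT cells. Of all genes tested, 72.8% fell and 16.7% rose in KO-labelled cells and 68.8% fell and 19.6% rose in WT cells, and the median of all genes moved to -1.87 in KO-labelled and -1.42 in WT cells. All 68 falls in KO-labelled cells and all 71 in WT cells were called by total reads too. That scale moved the changes of each contrast down by a nearly common amount, so a fall could hardly lose its call. The rises called by total reads were Med13l in both genotypes and Med25 in WT. Of the 16 rises in KO-labelled cells, 12 turned to called falls (Med9os, Med12l, Med14, Polr2l, Polr3b, Polr3g, Polrmt, Taf5l, Taf6, Taf6l, Taf10 and Taf11). Of the 15 rises in WT cells, 9 did so (Med14, Med22, Polr2l, Polr3b, Taf5l, Taf6, Taf6l, Taf10 and Taf11). Med14 turned to -0.51 in KO-labelled and -0.65 in WT cells, Taf6 to -0.74 in KO-labelled and -0.55 in WT cells, and Taf6l to -0.99 in KO-labelled and -0.53 in WT cells. Polr2l turned to -0.68 in KO-labelled and -0.46 in WT cells, Polr3b to -1.12 in KO-labelled and -1.01 in WT cells, and Taf11 to -1.52 in KO-labelled and -0.97 in WT cells. Gtf2f1, with no call over the stages by the size factors, fell by total reads (-1.40 in WT cells). The median member lay below the median of all genes on both scales, at -3.01 in KO-labelled and -2.27 in WT cells by total reads. A nearly common shift leaves that order as it was.

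The knockout comparison within each stage asks which members differed with the Carm1 label. In elongating spermatids 37 of 102 members fell and 20 rose, or 36.3% and 19.6%, against 27.7% of all genes tested that fell and 27.3% that rose, and the median member changed by -0.22 against -0.07 for all genes. In round spermatids 12 fell and 19 rose, or 11.8% and 18.6%, against 12.6% of all genes that fell and 19.4% that rose, so the members' shares were near the background. The round counts also moved with single libraries. Falls numbered 5 without KO-labelled round library 1, 5 without KO-labelled library 2, 4 without WT library 1 and 5 without WT library 2, and rises numbered 11 without WT library 1. By total reads, 85 members fell and 4 rose in elongating spermatids, against 62.8% of all genes that fell and 8.89% that rose, and the rises were Med13l, Med14, Med9 and Med9os. Of the 20 rises by the size factors, 8 turned to called falls by total reads (Gtf2i, Med10, Med13, Polr2m, Taf5l, Taf6, Taf6l and Taf10). In round spermatids 24 members fell and 11 rose by total reads, or 23.5% and 10.8%, against 19.5% of all genes that fell and 14% that rose. All 37 elongating and 12 round falls were called by total reads too. That scale moved the changes of each contrast down by a nearly common amount, so a fall could hardly lose its call.

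**Figure D2:**
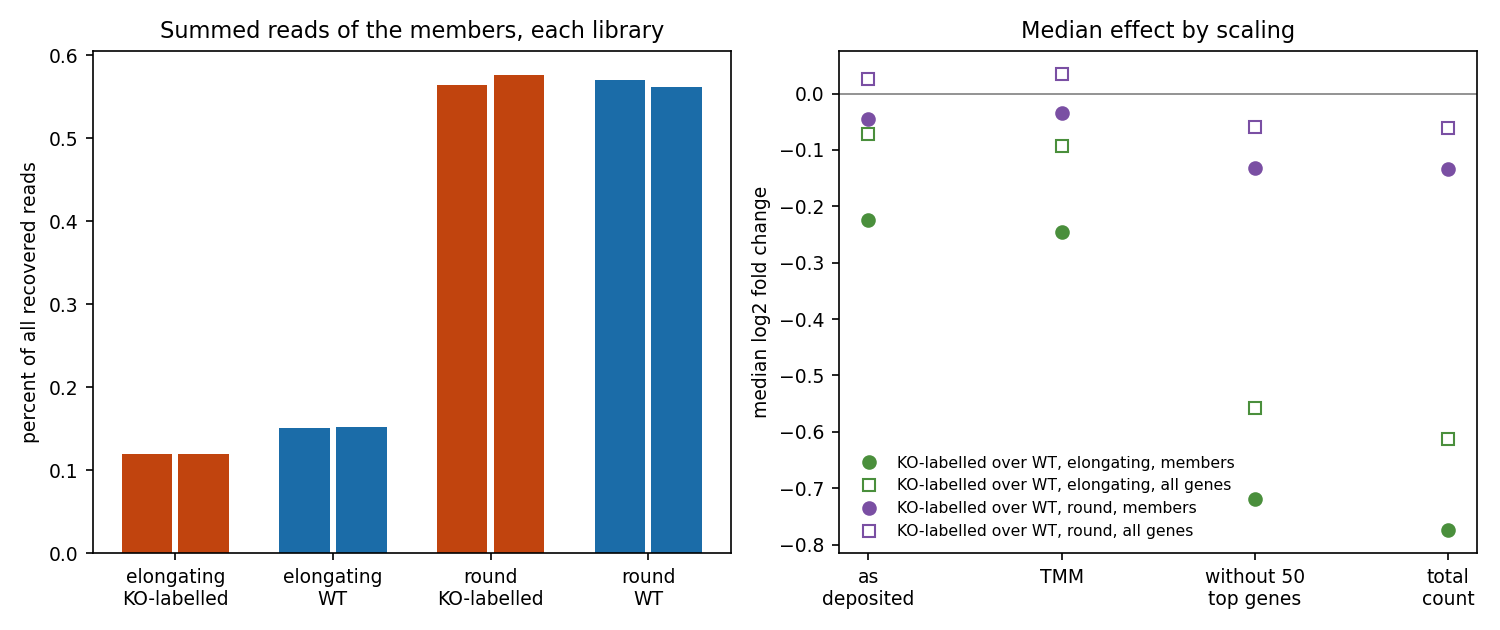
Left, summed reads of the members as percent of all recovered reads, 1 bar a library, with the groups from left to right elongating KO-labelled, elongating WT, round KO-labelled and round WT. Right, median log2 fold change, KO-labelled over WT, of the members (filled circles) and of all genes tested (open squares) under 4 scalings, where by total reads the elongating medians lie at -0.77 for the members and -0.61 for all genes.

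How far the calls rested on single libraries was counted next. Of the 37 falls and 20 rises in elongating spermatids, 14 falls and 4 rises lost their call in at least 1 of the 4 fits that each left out 1 elongating library. Of the 12 falls and 19 rises in round spermatids, 10 falls and 8 rises did so when 1 round library was left out. Med4 and Gtf2f1 were the falls called in all 4 round fits. The rises called in all 4 were those of Gtf2i, Gtf3c2, Med9, Med14, Med16, Med25, Med26, Med29, Taf6l, Taf9 and Taf10, the same 11 as by total reads. The round calls of Gtf2e1, Taf1, Taf2, Taf11, Polr2l, Polrmt and Med28 were lost whichever round library was left out. Those of Taf4b, Polr2b, Taf15, Gtf2ird1, Gtf2f2, Med10 and Med9os were lost in 2 or 3 of the 4 fits.

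**Figure D3:**
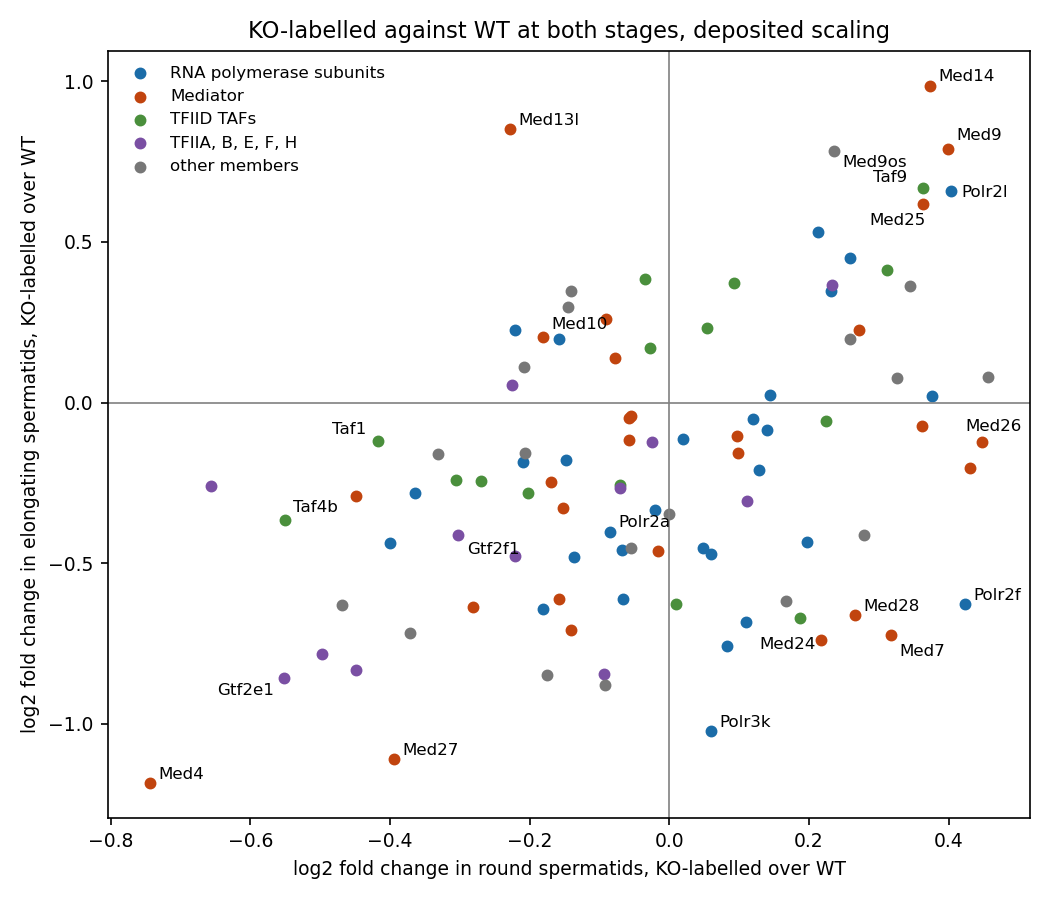
Log2 fold change, KO-labelled over WT, of each tested member in round spermatids (x axis) and elongating spermatids (y axis), with named members labelled. Med14, Med9 and Taf9 lie high on both axes and Med4 and Gtf2e1 low on both, while Med7, Polr2f, Med24 and Med28 lie right of 0 and below 0, and Med13l lies left of 0 and above 0.

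Mediator held both the strongest rise and the strongest fall among members at the elongating stage. There, 8 of 28 tested subunits fell and 6 rose, against 27.7% of all genes tested that fell and 27.3% that rose. In round spermatids 3 fell and 9 rose, against 12.6% of all genes that fell and 19.4% that rose. The falls in Mediator were thus near the share of all genes at both stages. Med14 (chromosome X, 12675369 to 12762073, GRCm38) measured 857 and 807 in KO-labelled elongating libraries, against 398 and 441 in WT (log2 fold change 0.99, SE 0.08, limma adjusted p = 4.1e-08). In round spermatids it measured 301 and 317 in KO-labelled round libraries, against 235 and 241 in WT (log2 fold change 0.37, SE 0.08, limma adjusted p = 0.0017), so that every KO-labelled library was above every WT library of its stage. Med4 (chromosome 14, 73510025 to 73518849), a middle-module subunit, measured 56.2 and 54.7 in KO-labelled elongating libraries, against 135 and 119.7 in WT (log2 fold change -1.18, SE 0.13, limma adjusted p = 2.1e-06). In round spermatids it measured 109 and 108 in KO-labelled round libraries, against 178 and 187 in WT (log2 fold change -0.74, SE 0.13, limma adjusted p = 0.00054), again with no overlap. Med9 (chromosome 11, 59948206 to 59962205), another middle subunit, measured 1061 and 1019.9 in KO-labelled elongating libraries, against 608 and 594 in WT (log2 fold change 0.79, SE 0.05, limma adjusted p = 8.9e-09) and 975 and 982 in KO-labelled round libraries, against 752 and 731 in WT (log2 fold change 0.40, SE 0.05, limma adjusted p = 5.2e-05). The antisense gene Med9os, beside it on the opposite strand, measured 1404 and 1327 in KO-labelled elongating libraries, against 842 and 746 in WT (log2 fold change 0.78, SE 0.06, limma adjusted p = 4.8e-08). Med25 rose at both stages by the size factors (0.62 in elongating and 0.36 in round spermatids). By total reads its elongating change was 0.05 and was not called (limma adjusted p = 0.33).

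**Figure D4:**
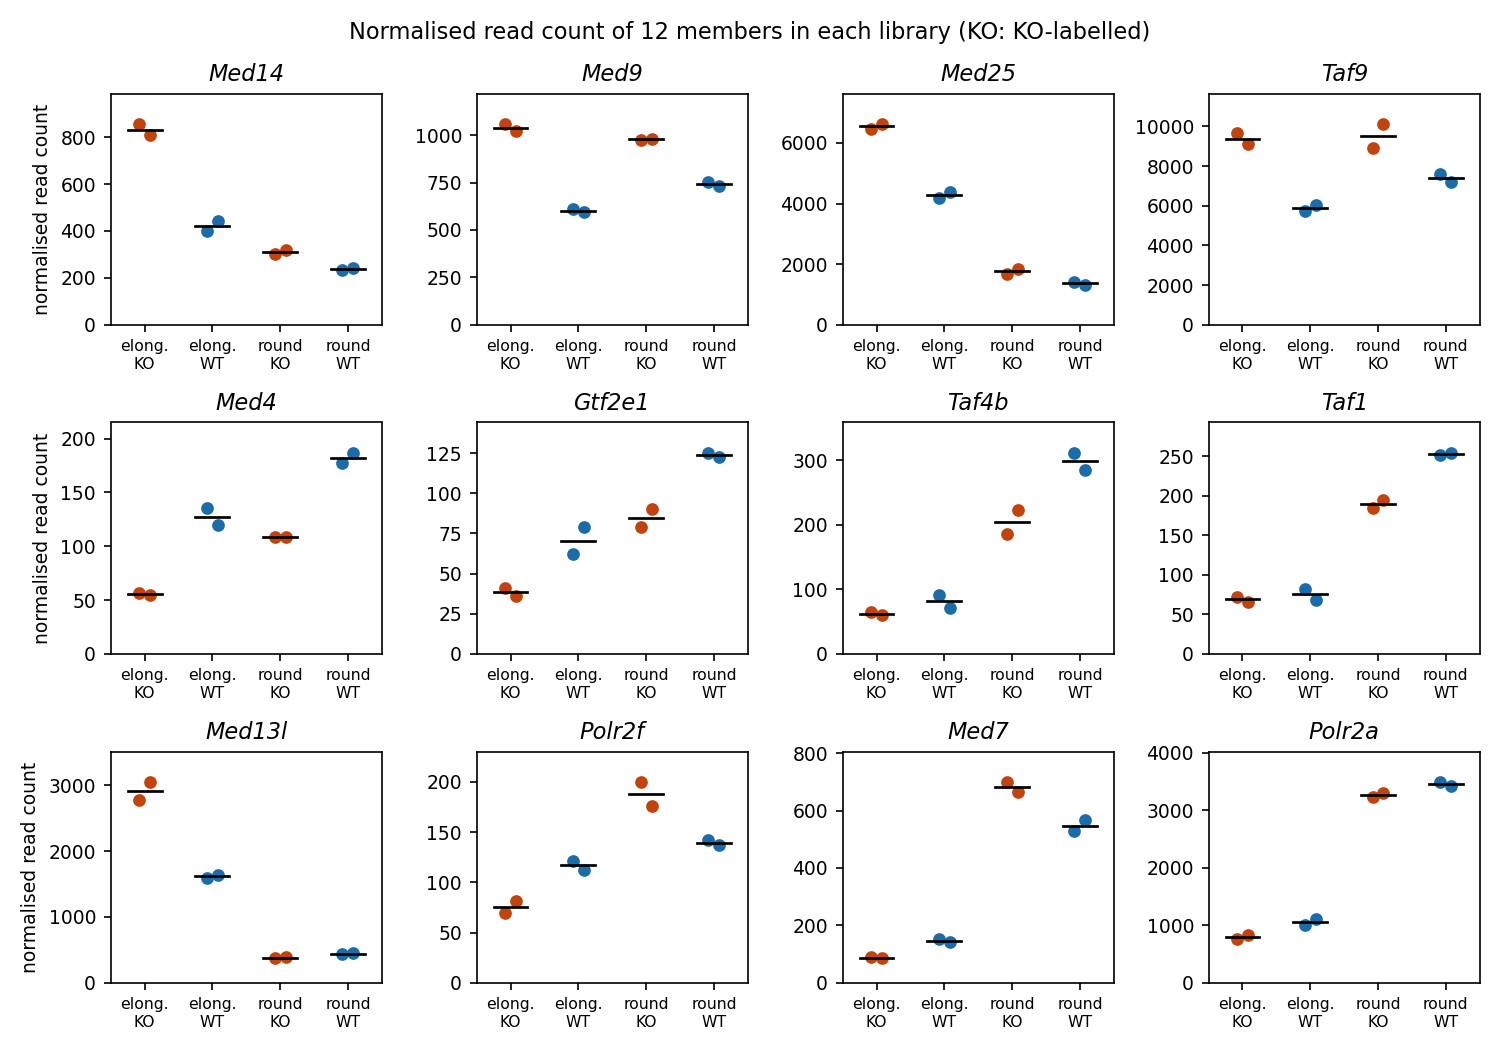
Normalised read counts of 12 members in each library, with the groups from left to right elongating KO-labelled, elongating WT, round KO-labelled and round WT. Med14 and Taf9 are higher in KO-labelled than in WT libraries of both stages and Med4 and Gtf2e1 are lower, and Med7 and Polr2f are higher in KO-labelled round but lower in KO-labelled elongating libraries.

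Most of the other Mediator subunits named here were called at 1 stage and not at the other by the size factors. Med28 was called at both and Med1 at neither. Med27, a tail subunit, measured 42.7 and 26.4 in KO-labelled elongating libraries, against 67.0 and 80.8 in WT (log2 fold change -1.11, SE 0.18, limma adjusted p = 0.00012), with both KO-labelled libraries below both WT libraries. Head subunits fell in 4 of 8 cases at the elongating stage (Med17, Med8, Med28 and Med22) and none rose. Among all genes tested, 27.7% fell and 27.3% rose there. The call of Med22 was lost in 2 of the 4 fits that each left out 1 elongating library. Med17, a core head subunit, measured 40.7 and 56.6 in KO-labelled and 73.5 and 85.1 in WT elongating libraries (log2 fold change -0.71, SE 0.19, limma adjusted p = 0.0048). Med26, which joins Mediator to elongation factors, measured 2625 and 2760.3 in KO-labelled round libraries, against 2019.6 and 1928 in WT (log2 fold change 0.45, SE 0.06, limma adjusted p = 2.6e-05). The tail subunits Med29 (log2 fold change 0.43) and Med16 (0.36) also rose in round spermatids. In elongating spermatids Med26 measured 576 and 607 in KO-labelled and 617 and 671 in WT libraries, a difference that was not called by the size factors (95% interval -0.24 to -0.00) and was -0.68 by total reads (limma adjusted p = 4e-08). Med1, the subunit that binds nuclear receptors, was not called at either stage by the size factors, with 95% intervals of -0.15 to 0.07 in elongating and -0.17 to 0.06 in round spermatids. By total reads it fell at both, with a log2 fold change of -0.60 in elongating (limma adjusted p = 8.9e-08) and -0.14 in round spermatids (limma adjusted p = 0.049).

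Polymerase subunits fell more often than they rose at the elongating stage, 12 against 5 of 29, while in round spermatids 1 fell and 3 rose. Of all genes tested, 27.7% fell and 27.3% rose at the elongating stage, and 12.6% fell and 19.4% rose in round spermatids. Polr3k, the RNA polymerase III subunit needed for RNA cleavage and termination, measured 29.1 and 28.3 in KO-labelled elongating libraries, against 69.6 and 50.5 in WT (log2 fold change -1.02, SE 0.19, limma adjusted p = 0.00029). Its round libraries held 98.6 and 109 in KO-labelled and 98.6 and 99.9 in WT cells, with no call. Polr1e, an RNA polymerase I subunit, measured 17.5 and 30.2 in KO-labelled elongating libraries, against 45.1 and 34.6 in WT (log2 fold change -0.76, SE 0.24, limma adjusted p = 0.016). Both genes were lower in every elongating than in every round library, and the Polr1e call was lost without KO-labelled library 1 or WT library 1, with DESeq2 and in the 4 elongating libraries alone. Polr2a measured 760.2 and 833 in KO-labelled elongating libraries, against 1004 and 1102 in WT (log2 fold change -0.40, SE 0.05, limma adjusted p = 1.8e-05), and in round spermatids 3225 and 3296 in KO-labelled and 3499.7 and 3417 in WT libraries (95% interval -0.20 to 0.03, no call, and -0.17 by total reads with a limma adjusted p = 0.024). Polr2b, the second largest subunit, fell at both stages (-0.28 in elongating and -0.36 in round spermatids). Polr2l, a small subunit shared by the nuclear polymerases, measured 217 and 273 in KO-labelled elongating libraries, against 138 and 172 in WT (log2 fold change 0.66, SE 0.14, limma adjusted p = 0.0013) and rose in round spermatids too (0.40). Polr3c, of the initiation subcomplex of RNA polymerase III, measured 444 and 364 in KO-labelled elongating libraries, against 277 and 278 in WT (log2 fold change 0.53, SE 0.09, limma adjusted p = 0.00015). By total reads neither rise remained, with Polr2l at 0.10 and Polr3c at -0.03.

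Polrmt, the mitochondrial RNA polymerase, measured 347 and 313 in KO-labelled elongating libraries, against 237 and 245 in WT (log2 fold change 0.45, SE 0.09, limma adjusted p = 0.00066) and 260.1 and 285 in KO-labelled round libraries, against 229.7 and 225 in WT (log2 fold change 0.26, SE 0.09, limma adjusted p = 0.04). The elongating difference was -0.11 by total reads. Polr1a, the largest subunit of RNA polymerase I, and Polr3a, that of RNA polymerase III, were called at neither stage by the size factors, with 95% intervals in elongating spermatids of -0.29 to 0.06 for Polr1a and -0.86 to -0.06 for Polr3a. By total reads both fell there, with limma adjusted p = 2e-06 for Polr1a, at -0.67, and 0.00022 for Polr3a. Polr3a was also called lower with TMM scaling, a pseudocount of 5, edgeR and without WT library 2, and Polr1a without KO-labelled library 1.

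Among TFIID TAFs, 3 fell and 4 rose of 15 at the elongating stage, against 27.7% of all genes tested that fell and 27.3% that rose. In round spermatids 4 fell and 2 rose, against 12.6% of all genes that fell and 19.4% that rose. Taf9 (chromosome 13) measured 9672 and 9109 in KO-labelled elongating libraries, against 5759.8 and 6062 in WT (log2 fold change 0.67, SE 0.05, limma adjusted p = 3.7e-08) and 8937 and 10140.2 in KO-labelled round libraries, against 7596 and 7218 in WT (log2 fold change 0.36, SE 0.05, limma adjusted p = 8.3e-05), with its reads partly shared with Ak6. By total reads its elongating change was 0.10 and was not called (limma adjusted p = 0.065). Taf4b, the gonad-enriched paralog of the scaffold TAF Taf4, measured 185 and 223 in KO-labelled round libraries, against 312 and 285 in WT (log2 fold change -0.55, SE 0.15, limma adjusted p = 0.0094) and fell at the elongating stage as well (-0.37). Taf1, the largest subunit, measured 184 and 194 in KO-labelled round libraries, against 251 and 254 in WT (log2 fold change -0.42, SE 0.13, limma adjusted p = 0.025). The groups of round libraries did not overlap for either gene, and the elongating call of Taf4b was lost without KO-labelled library 2, WT library 1 or any of the 4 round libraries, with edgeR, with DESeq2 and in the 4 elongating libraries alone. Taf2, which contacts the initiator element, fell in round spermatids (-0.31) and Taf11 at both stages (-0.28 in elongating and -0.20 in round spermatids). Taf10, a TAF shared with SAGA, rose at both stages (0.41 in elongating and 0.31 in round spermatids), and by total reads its elongating change was -0.15. Taf15, an RNA-binding protein that can associate with TFIID, fell at both stages (-0.72 in elongating and -0.37 in round spermatids).

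By the size factors, the other general factors of RNA polymerase II fell in 8 of 12 cases at the elongating stage and only Gtf2f2, the small subunit of TFIIF, rose. Of all genes tested, 27.7% fell and 27.3% rose there. By total reads Gtf2f2 was -0.19 in elongating spermatids and was not called (limma adjusted p = 0.053). Gtf2e1, the large subunit of TFIIE, measured 40.7 and 35.8 in KO-labelled elongating libraries, against 61.9 and 79.3 in WT (log2 fold change -0.86, SE 0.18, limma adjusted p = 0.00075) and 78.9 and 90.1 in KO-labelled round libraries, against 125 and 123 in WT (log2 fold change -0.55, SE 0.18, limma adjusted p = 0.026), with every KO-labelled library below every WT library of its stage. Gtf2a2 measured 167 and 143 in KO-labelled elongating libraries, against 253 and 307 in WT (log2 fold change -0.85, SE 0.10, limma adjusted p = 3.9e-06). Of the 5 TFIIH genes, which include subunits of the helicase core that opens DNA, 3 fell (Gtf2h4, Gtf2h3 and Gtf2h2). Gtf2h4 measured 27.2 and 17.0 in KO-labelled elongating libraries, against 52.9 and 28.8 in WT (log2 fold change -0.83, SE 0.27, limma adjusted p = 0.017) and Gtf2h3 17.5 and 17.0 in KO-labelled elongating libraries, against 24.5 and 37.5 in WT (log2 fold change -0.78, SE 0.24, limma adjusted p = 0.014), with the first call lost without KO-labelled library 2 or WT library 1 and the second without WT library 2 or with edgeR, and both with DESeq2 and in the 4 elongating libraries alone. Gtf2b measured 208 and 160.2 in KO-labelled elongating libraries, against 206 and 234 in WT (log2 fold change -0.27, SE 0.10, limma adjusted p = 0.043), with groups that overlapped and a call lost without KO-labelled library 2, WT library 2 or any of the 4 round libraries, with edgeR, with DESeq2 and in the 4 elongating libraries alone. In round spermatids none of the TFIIA, TFIIB or TFIIH genes was called by the size factors, while Gtf2e1 and Gtf2f1 fell and Gtf2f2 rose. By total reads Gtf2a1 (-0.31, limma adjusted p = 0.037) and Gtf2h5 (-0.75, limma adjusted p = 0.034) fell there. Gtf2f1, with the full element in its promoter window, fell at both stages (-0.41 in elongating and -0.30 in round spermatids). Of the other windows with it, Med21 was called at neither stage by the size factors and was -0.34 in elongating spermatids by total reads (limma adjusted p = 0.0096), Gtf3c1 fell at the elongating stage and Taf11 fell at both. The round call of Taf11 was lost whichever round library was left out. Whether the element goes with these changes was not tested.

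Of the TFIIIA and TFIIIC genes, which serve RNA polymerase III, 3 of 7 fell at the elongating stage and 1 rose in round spermatids. Of all genes tested, 27.7% fell at the elongating stage and 19.4% rose in round spermatids. Gtf3c3 measured 38.8 and 28.3 in KO-labelled elongating libraries, against 69.6 and 54.8 in WT (log2 fold change -0.88, SE 0.17, limma adjusted p = 0.00053), and Gtf3c1, the subunit that contacts the internal promoter of tRNA genes, 299 and 271 in KO-labelled elongating libraries, against 436 and 438 in WT (log2 fold change -0.62, SE 0.06, limma adjusted p = 1.1e-06). In round spermatids Gtf3c3 measured 186 and 183 in KO-labelled and 197 and 196 in WT libraries, with no call. Taf1b, a subunit of SL1, measured 120.2 and 138 in KO-labelled elongating libraries, against 224 and 241 in WT (log2 fold change -0.85, SE 0.10, limma adjusted p = 5.3e-06), the single SL1 gene of 4 that was called at either stage by the size factors. By total reads Taf1a (-0.94, limma adjusted p = 0.00075) and Taf1d (-0.71, limma adjusted p = 0.0055) fell in elongating spermatids as well. In the TFII-I family Gtf2i rose at both stages and Gtf2ird1 fell at both (-0.63 in elongating and -0.47 in round spermatids), and Gtf2i was -0.36 by total reads in elongating spermatids.

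Of the 102 tested members, 11 rose at each stage and 8 fell at each, while 39 were called at neither, by the size factors. The share of all genes with such pairs of calls was not counted, so these counts are not read as a trait of the members. Because each stage has its own libraries, the difference between the knockout effects was tested as an interaction, the elongating effect minus the round effect. That difference was negative for 20 members and positive for 11, against 17.5% of all genes tested that were negative and 19.3% that were positive. The 4 genes Med7, Polr2f, Med24 and Med28 rose in round and fell in elongating spermatids. Med7, of the middle module, measured 89.2 and 86.7 in KO-labelled elongating libraries, against 151 and 141 in WT (log2 fold change -0.72, SE 0.09, limma adjusted p = 5.1e-06) and 701 and 664 in KO-labelled round libraries, against 529 and 566 in WT (log2 fold change 0.32, SE 0.09, limma adjusted p = 0.012), and its effects differed by -1.04 (SE 0.12, limma adjusted p = 8.5e-06). Polr2f, a subunit shared by the nuclear polymerases, measured 69.8 and 81.1 in KO-labelled elongating libraries, against 121 and 112 in WT (log2 fold change -0.63, SE 0.13, limma adjusted p = 0.00094) and 200.3 and 176 in KO-labelled round libraries, against 142 and 137 in WT (log2 fold change 0.42, SE 0.13, limma adjusted p = 0.023). Med24 measured 372 and 386 in KO-labelled elongating libraries, against 647 and 622 in WT (log2 fold change -0.74, SE 0.05, limma adjusted p = 1.7e-08) and 2486 and 2671 in KO-labelled against 2202 and 2229 in WT round libraries (log2 fold change 0.22). The groups of each stage did not overlap for these genes. The round rises rested on single libraries, however: without 1 round library, the adjusted p reached 0.14 for Med7, 0.2 for Polr2f, 0.089 for Med24 and 0.13 for Med28 in limma, and by total reads none of the 4 was called in round spermatids. Without KO-labelled library 1 or WT library 1 the round call of Med7 was lost, and without those or WT library 2 that of Polr2f. Without KO-labelled library 2 or WT library 1 that of Med24 was lost. Med13l (chromosome 5, 118560679 to 118765438) and Med10 went the other way by the size factors. By total reads Med10 fell at both stages (-0.36 in elongating and -0.27 in round spermatids). The round call of Med10 was lost in 3 of the 4 fits that each left out 1 round library. Med13l measured 2781 and 3054 in KO-labelled elongating libraries, against 1587 and 1641 in WT (log2 fold change 0.85, SE 0.06, limma adjusted p = 7.5e-09) and 371 and 385 in KO-labelled round libraries, against 441 and 445 in WT (log2 fold change -0.23, SE 0.06, limma adjusted p = 0.0068), with a round call lost without KO-labelled library 1 or WT library 2 and a difference of 1.08 (SE 0.08, limma adjusted p = 8.7e-08). By total reads the difference was called negative for 65 members and positive for Med13l only, against 45.1% of all genes that were negative and 5.47% that were positive, with a median of all genes of -0.49.

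Taf5l and Taf6l, the SAGA counterparts of Taf5 and Taf6, were both higher in KO-labelled elongating libraries, at 2019 and 1938 in KO-labelled and 1602 and 1511 in WT libraries for Taf5l (log2 fold change 0.35, SE 0.06, limma adjusted p = 9.3e-05) and at 867 and 978 in KO-labelled and 731 and 702 in WT libraries for Taf6l (log2 fold change 0.36, SE 0.07, limma adjusted p = 0.00042). Taf6 rose as well (0.37), and Taf5 was not called (95% interval -0.55 to 0.04). By total reads the 3 rises turned, to -0.22 for Taf5l, -0.20 for Taf6l and -0.19 for Taf6, and Taf5 fell (-0.79, limma adjusted p = 0.00011). Polr3gl measured 73.7 and 58.4 in KO-labelled elongating libraries, against 82.5 and 102 in WT (log2 fold change -0.48, SE 0.16, limma adjusted p = 0.019), while Polr3g measured 132 and 111 in KO-labelled and 108 and 131 in WT libraries (95% interval -0.38 to 0.42) and was -0.53 by total reads (limma adjusted p = 0.018). The Polr3gl call was lost without KO-labelled library 2 or WT library 2, with DESeq2 and in the 4 elongating libraries alone. Over the stages the pair parted, Polr3g rising in both genotypes by the size factors and Polr3gl falling in both (-0.86 in KO-labelled and -0.52 in WT cells). Taf4a, the symbol in the table for Taf4, was called in neither knockout comparison by the size factors or by total reads, but was higher in elongating spermatids without KO-labelled library 1. Taf9b, the paralog of Taf9, was not called either (95% interval -0.30 to 0.19 in elongating spermatids). It fell there by total reads (-0.61, limma adjusted p = 0.00015), and in round spermatids it was called higher with edgeR, in the 4 round libraries alone and without either KO-labelled elongating library. Over the stages it fell in both genotypes (log2 fold change -1.71 in WT cells). Med13 changed by 0.14 in elongating spermatids (limma adjusted p = 0.02), a call lost without WT library 2, with edgeR and with DESeq2, and by -0.43 by total reads.

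All 5 genes chosen next to the set were lower in KO-labelled elongating spermatids. Tbp, the TATA-binding subunit of TFIID, measured 254 and 173 in KO-labelled elongating libraries, against 348 and 371 in WT (log2 fold change -0.77, SE 0.12, limma adjusted p = 7.1e-05) and its germ-cell relative Tbpl1 359 and 334 in KO-labelled elongating libraries, against 645 and 607 in WT (log2 fold change -0.85, SE 0.05, limma adjusted p = 2.5e-09). The paralogs left out by the rule, Taf7l (-0.27) and Gtf2a1l (-0.29), and the kinase-module gene Med12 (-0.36) fell too. Of 63 tested genes of other transcription machinery, such as elongation, termination, SAGA and assembly factors, 25 fell and 10 rose in elongating spermatids and 8 fell and 8 rose in round spermatids. The shares of all genes tested were 27.7% that fell and 27.3% that rose in elongating and 12.6% and 19.4% in round spermatids. The largest rise and falls named next are those of this list. The largest rise at both stages was in Rpap3, an assembly factor of the polymerases (0.71 in elongating and 1.35 in round spermatids). The largest falls were in Tada2a, a transcriptional adaptor gene, in elongating spermatids (-1.18) and in Ell3, an elongation factor gene, in round spermatids (-1.14). Tada2a had only 10 and 6 reads in KO-labelled and 18 and 36 reads in WT elongating libraries, so its value is imprecise. Rpap3 had only 24 and 28 reads in KO-labelled and 22 and 22 reads in WT elongating libraries, so its elongating value is imprecise too. The changes of this list are by the size factors, and those by total reads are not given here.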

How the data were processed

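Poly A RNA of 8 libraries was made into unstranded TruSeq libraries, per the labels' protocols. DESeq 1.16.0, HTSeq 0.6.0, TopHat2 2.0.10 and CASAVA 1.8.2, with the builds mm10 and GRCm38, are listed in the submitters' processing notes. Annotation and strand setting of the counting were not given in the sources used here. In the deposited table the signal of a gene is a read count divided by a size factor, since dividing each column by the value of 1 read gave whole reads for 100% of values at a tolerance of 1e-06.

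A gene entered the test when 2 or more libraries reached a value of 10, which held for 15685 of 16349 genes and 102 of 103 members. Testing used limma 3.58.1 (R 4.3.3) with a trend on log2(value + 1), over 8 libraries and 4 group means, two-sided, with Benjamini-Hochberg adjustment over all genes. Fold changes on this scale understate the change of low genes. On recovered reads in elongating spermatids, edgeR 4.0.16 called 4023 genes higher and 4113 lower and DESeq2 1.42.0 called 3658 higher and 2760 lower in KO-labelled cells, against 4279 higher and 4348 lower by limma. Other alternatives were total-count and TMM scaling, library sizes without the 50 most abundant genes, pseudocounts of 0.5 and 5, no filter, the 4 libraries of a contrast alone, a replicate block, and leaving out each library.

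Libraries of a group differed by more than sampling noise (chi-square per gene 1.37 to 2.31) and were counted separately. Symbols, positions and exon lengths were matched to GENCODE M21 (GRCm38). The members and lists were chosen with earlier results of these data known. Genes named in the text were those of a fixed rule: the largest called rises and falls of each contrast (10 for each knockout contrast, 5 for their difference, 8 for each stage contrast), a fixed set of largest subunits and scaffolds, and paralog pairs; others were named after their values were seen.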

Additional observations from a re-analysis of the deposited data

Results flagged for a closer look

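For 31 members the knockout effect differed between the stages by the interaction contrast of limma at an adjusted p under 0.05. Values are the elongating effect minus the round effect, each KO-labelled over WT, on the log2 scale. Scaling by total reads left 65 negative differences and 1 positive, so the positive calls other than Med13l hold by the size factors and not by total reads. By total reads the differences of Med13, Med25, Taf6 and Taf9 were called negative.

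In Mediator the difference was -1.04 for Med7, -0.96 for Med24, -0.93 for Med28, -0.71 for Med27, -0.64 for Med29, -0.57 for Med26 and -0.43 for Med16. It was positive for Med13 (0.22), Med25 (0.25), Med10 (0.39), Med9 (0.39), Med14 (0.61) and Med13l (1.08), and for the antisense gene Med9os (0.55).

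Among polymerase genes it was -1.08 for Polr3k, -1.05 for Polr2f, -0.53 for Polr1d, -0.50 for Polr2e, -0.34 for Polr3e and -0.32 for Polr2a, and 0.45 for Polr2m. Among general factors and TAFs of RNA polymerase II and SAGA it was -0.86 for Taf12, -0.75 for Gtf2a2 and -0.42 for Gtf2e2, and 0.28 for Taf6, 0.31 for Taf9 and 0.49 for Taf5l. Among factors of the other polymerases it was -0.79 for Gtf3c3, -0.78 for Gtf3c1, -0.67 for Taf1b and -0.25 for Gtf3c2.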

How the results depend on the processing

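The counts of members called moved by over 1.5 times under these settings. By total reads, 4 rose and 85 fell in the elongating knockout comparison, 11 rose and 24 fell in the round one, the difference was positive for 1 and negative for 65, and 1 rose over the stages in KO-labelled and 2 in WT cells. With library sizes that leave out the top 50 genes, 5 rose and 81 fell in elongating and 11 rose and 22 fell in round spermatids, the difference was positive for 1 and negative for 57, and 5 rose over the stages in each genotype. With edgeR 29 rose and 25 fell in round spermatids, with DESeq2 22 fell in elongating spermatids, and in the 4 round libraries alone 23 fell. Leaving out 1 library gave 17 to 21 rises and 32 to 41 falls in elongating and 11 to 25 rises and 4 to 18 falls in round spermatids. It gave 8 to 13 positive and 15 to 27 negative differences. Over the stages it gave 15 to 17 rises and 67 to 70 falls in KO-labelled and 13 to 15 rises and 65 to 72 falls in WT cells. TMM scaling, both pseudocounts and no filter moved no count by over 1.5 times.

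The signs that turned are given for all members called in either setting, as log2 values under the setting named. In the elongating knockout comparison the sign turned by total reads for 20 members, Gtf2a1 -0.51, Gtf2f2 -0.19, Gtf2i -0.36, Gtf3c2 -0.49, Med10 -0.36, Med13 -0.43, Med21 -0.34, Polr1c -0.21, Polr2m -0.34, Polr3b -0.36, Polr3c -0.03, Polr3f -0.53, Polr3g -0.53, Polrmt -0.11, Taf10 -0.15, Taf13 -0.18, Taf3 -0.39, Taf5l -0.22, Taf6 -0.19 and Taf6l -0.20. Without the top 50 genes it did so there for 18, Gtf2a1 -0.45, Gtf2f2 -0.13, Gtf2i -0.31, Gtf3c2 -0.43, Med10 -0.30, Med13 -0.37, Med21 -0.28, Polr1c -0.15, Polr2m -0.28, Polr3f -0.47, Polr3g -0.47, Polrmt -0.05, Taf10 -0.09, Taf13 -0.12, Taf3 -0.33, Taf5l -0.16, Taf6 -0.13 and Taf6l -0.14. In the difference between knockout effects the sign turned by total reads for 15 members, Gtf2f2 -0.34, Med1 -0.46, Med10 -0.09, Med13 -0.26, Med25 -0.22, Med9 -0.08, Polr1c -0.36, Polr2b -0.38, Polr2m -0.02, Taf10 -0.37, Taf2 -0.40, Taf3 -0.27, Taf6 -0.20, Taf6l -0.46 and Taf9 -0.17. Without the top 50 genes it did so there for 9, Med1 -0.40, Med10 -0.03, Med13 -0.20, Med25 -0.16, Med9 -0.03, Taf10 -0.32, Taf6 -0.14, Taf6l -0.40 and Taf9 -0.11. Over the stages in KO-labelled cells the sign turned by total reads for 19 members, Gtf2h5 -1.79, Gtf3a -0.08, Med11 -1.48, Med12l -0.55, Med13 -1.93, Med14 -0.51, Med22 -1.88, Med25 -0.05, Med9 -1.85, Med9os -1.42, Polr2l -0.68, Polr3b -1.12, Polr3g -0.47, Polrmt -1.66, Taf10 -0.71, Taf11 -1.52, Taf5l -0.31, Taf6 -0.74 and Taf6l -0.99. Without the top 50 genes it did so there for 16, Gtf2h5 -1.34, Med11 -1.03, Med12l -0.08, Med13 -1.45, Med14 -0.04, Med22 -1.41, Med9 -1.38, Med9os -0.95, Polr2l -0.21, Polr3b -0.66, Polr3g -0.00, Polrmt -1.19, Taf10 -0.23, Taf11 -1.05, Taf6 -0.27 and Taf6l -0.52. Over the stages in WT cells the sign turned by total reads for 17 members, Gtf2f1 -1.40, Gtf3a -0.06, Med11 -1.39, Med12l -0.02, Med14 -0.65, Med19 -1.27, Med22 -0.97, Polr2h -1.33, Polr2l -0.46, Polr3b -1.01, Polrmt -1.37, Taf10 -0.33, Taf11 -0.97, Taf1c -1.15, Taf5l -0.33, Taf6 -0.55 and Taf6l -0.53. Without the top 50 genes it did so there for 13, Gtf2f1 -0.99, Med11 -0.99, Med14 -0.23, Med19 -0.85, Med22 -0.55, Polr2h -0.93, Polr2l -0.05, Polr3b -0.60, Polrmt -0.96, Taf11 -0.55, Taf1c -0.75, Taf6 -0.13 and Taf6l -0.12. Med13 over the stages in KO-labelled cells was -0.11 with TMM scaling and -0.14 with edgeR. No member turned so in the round knockout comparison or under another setting. Signs of values called in neither setting were not followed.

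Same-numbered libraries did not deviate together over all genes tested (correlations from -0.015 to 0.031). Counting noise enters these correlations, so they cannot show whether such libraries share animals or a preparation. With the replicate block, 20 members rose and 38 fell in elongating and 18 rose and 12 fell in round spermatids, and the round rise of Polrmt was not called. The cause of these changes was not tested.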

Other observations

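Genes of mitochondrial transcription, picked after their values were seen, are given here as values. Counts are by gene, so transcript forms of a gene such as Tfam are not told apart, and nothing about mitochondrial transcription itself was measured. Tfam, which packages mitochondrial DNA and starts its transcription, measured 12466 and 12261 in elongating and 703 and 664 in round KO-labelled libraries (log2 fold change 4.17, SE 0.05, limma adjusted p = 2.8e-19) and 8851 and 8648 in elongating and 737 and 802 in round WT libraries (log2 fold change 3.51, SE 0.05, limma adjusted p = 3.4e-18). Tfb1m, a methyltransferase of mitochondrial ribosomal RNA, measured 239 and 199.8 in KO-labelled elongating libraries, against 459 and 448 in WT (log2 fold change -1.05, SE 0.08, limma adjusted p = 4.1e-08) and 516 and 495 in KO-labelled round libraries, against 849 and 884 in WT (log2 fold change -0.78, SE 0.08, limma adjusted p = 5.1e-06). Tfb2m, the partner of the mitochondrial polymerase at promoters, was called at neither stage in the knockout comparison.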
